A study of Mus musculus with 2 samples.

Results

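Hox genes encode homeodomain transcription factors and lie in 4 clusters in the mouse genome. This report describes all 39 genes, of the 27998 gene features counted, whose symbol is Hox followed by the cluster letter a, b, c or d and a number. They were measured by single-cell RNA sequencing in cells sorted from the cancellous bone of the femur of Gli1-CreERT2; Ai9 mice on a mixed background. In these mice tamoxifen lets the Cre recombinase, made under control of the Hedgehog target gene Gli1, switch on the red protein tdTomato in Gli1-expressing cells, and their descendants keep it. All mice were 1 month old and received tamoxifen once daily for 3 days. The vehicle group was then injected with vehicle and the teriparatide group with teriparatide, a fragment of parathyroid hormone that builds bone, at 400 ng/g once daily for 3 days. The sort kept tdTomato+CD31-CD45-Ter119- cells from the metaphysis, the widened end of the bone shaft, after the epiphysis was removed. Each group had 5 mice (males 3, females 2), but there was 1 library per condition and its barcodes carry no mouse labels, so no difference was tested and the 95% intervals cover counting error only, not the spread between mice.

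In each Hox cluster the genes lie in the order of their paralogue groups. These are numbered from group 1, which acts toward the head, to group 13, which acts toward the tail and the tips of the limbs. No cluster holds a gene of every group, and cluster c starts at Hoxc4. During limb development the posterior groups specify the limb segments, with groups 9 and 10 tied to the upper segment that holds the femur, group 11 to the middle segment and group 13 to the hand and foot. Skeletal cells keep a Hox pattern in adult life that marks where in the body they formed, and in blood progenitors a different set, mainly of clusters a and b, is known to be active.

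The members lie on chromosomes 6 (Hoxa), 11 (Hoxb), 15 (Hoxc) and 2 (Hoxd). The 5 promoters that follow are of genes the results turn on: Hoxa10, the leading member of the MALP-like cells described later, Hoxb4, the member with most molecules in blood cells, and the neighbours Hoxd8, Hoxd9 and Hoxd10, of which the first and second were found in mesenchymal cells and the last was not. Each runs 5′ to 3′ on the strand of the gene, from 250 bases before to 50 after the start in RefSeq on GRCm38.p6, and capitals mark TAAT on either strand (TAAT or ATTA), the core that homeodomains bind. They span chr6:52234890-52235189 on the minus strand and, on the plus strand, chr11:96318017-96318316, chr2:74704365-74704664, chr2:74697513-74697812 and chr2:74691641-74691940.
Hoxa10: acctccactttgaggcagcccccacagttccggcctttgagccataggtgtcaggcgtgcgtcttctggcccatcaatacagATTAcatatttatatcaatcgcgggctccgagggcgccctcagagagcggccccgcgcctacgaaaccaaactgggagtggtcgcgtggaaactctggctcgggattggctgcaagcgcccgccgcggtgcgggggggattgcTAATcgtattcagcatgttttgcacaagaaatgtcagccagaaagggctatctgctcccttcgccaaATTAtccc
Hoxb4: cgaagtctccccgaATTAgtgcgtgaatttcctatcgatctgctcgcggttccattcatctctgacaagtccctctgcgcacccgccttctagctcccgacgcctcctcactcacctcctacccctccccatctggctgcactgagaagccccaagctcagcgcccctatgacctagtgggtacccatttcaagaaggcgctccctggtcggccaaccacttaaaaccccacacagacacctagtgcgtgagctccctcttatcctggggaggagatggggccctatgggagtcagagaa
Hoxd8: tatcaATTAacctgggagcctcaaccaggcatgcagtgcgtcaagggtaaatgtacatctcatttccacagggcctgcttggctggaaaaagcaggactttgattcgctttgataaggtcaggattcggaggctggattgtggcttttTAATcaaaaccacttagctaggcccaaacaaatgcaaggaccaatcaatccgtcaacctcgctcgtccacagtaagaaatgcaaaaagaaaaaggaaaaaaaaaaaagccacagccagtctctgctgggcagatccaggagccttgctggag
Hoxd9: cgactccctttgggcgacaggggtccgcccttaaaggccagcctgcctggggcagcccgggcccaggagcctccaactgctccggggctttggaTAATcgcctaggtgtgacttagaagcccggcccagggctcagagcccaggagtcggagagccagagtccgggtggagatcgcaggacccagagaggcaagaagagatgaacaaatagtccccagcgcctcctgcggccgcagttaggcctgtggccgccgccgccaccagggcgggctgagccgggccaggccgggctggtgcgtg
Hoxd10: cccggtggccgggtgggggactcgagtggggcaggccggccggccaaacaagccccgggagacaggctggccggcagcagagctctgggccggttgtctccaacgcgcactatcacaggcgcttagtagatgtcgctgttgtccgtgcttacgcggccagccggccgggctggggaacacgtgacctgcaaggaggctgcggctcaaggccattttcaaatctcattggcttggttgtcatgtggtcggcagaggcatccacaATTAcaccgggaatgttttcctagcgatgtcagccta

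The Hoxa10 promoter shown, whose start lies inside the annotated gene (chr6:52231197-52240854), held 3 matches to TAAT, and the other Hoxa10 promoter of the table (chr6:52240805-52241104), at the annotated gene start, held 1. That of Hoxd8 held 2, and those of Hoxb4, Hoxd9 and Hoxd10 held 1 each. In all, 24 promoters of 22 members were in the table, and 19 of them (79.2%) held TAAT, against 58.0% of all 32851 promoters. The site TGATNNAT, which Hox proteins bind together with Pbx, was in 4 of the 24 (16.7%) and in 8.85% of all promoters. The posterior Hox site TTTATNG was in 2 of the 24 (8.33%) and in 10.9% of all. Both were searched on both strands and may overlap TAAT. A match says only that these letters are present.

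The vehicle library held 1286 cell barcodes with 10567335 molecules (UMIs, unique molecular identifiers, each standing for 1 captured mRNA), and the teriparatide library held 2142 with 26270041. Mitochondrial genes took over 10% of the UMIs in 55.8% and 40.2% of the barcodes, and 549 and 1217 cells passed the limits on genes and mitochondrial share. A score over marker genes put 419 vehicle and 586 teriparatide cells in the mesenchymal lineage, 74 and 441 in the blood (leukocyte) lineage and 47 and 161 in the erythroid lineage, although the sort had selected against CD45+ and Ter119+ cells. Only 2 barcodes occurred in both libraries. The mesenchymal cells were divided into COP-like cells with chondrocyte markers such as Sox9 and Acan (71 and 278 cells), OB-like cells with osteoblast markers such as Sp7 and Bglap2 (122 and 144), preOB-like cells (15 and 20) and MALP-like cells with markers of marrow stroma such as Lepr and Cxcl12 (179 and 100). COP stands for chondrocyte-like osteoprogenitor and MALP for marrow adipogenic lineage progenitor. The median COP-like cell held 27957 and 30875 UMIs, against 12506 and 16879.5 in the OB-like and 11045 and 13555.5 in the MALP-like cells. Summed markers of endothelium, skeletal muscle and Schwann cells were at most 3.69 CPM (UMIs for every 1000000 UMIs of all genes) in the mesenchymal cells of both libraries. The COP-like cells also held the hypertrophic chondrocyte genes Col10a1 and Ihh, at 5527 and 5130 CPM summed.

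In the mesenchymal cells, Hox transcripts of clusters a and c and of the central and posterior paralogue groups prevailed in both libraries. Levels are given as CPM, the UMIs of a gene for every 1000000 UMIs of all genes, after the counts of all cells of a class were added up within each library. Where values come in pairs, the vehicle library is given first and the teriparatide library second, with the 95% interval of a single value in parentheses. With 3′ counting they do not scale with gene length, but capture can differ between genes. The 39 members together held 7384 UMIs in the mesenchymal cells, and 10 of them held 87.2% of these. By UMIs over both libraries the order was Hoxc10, Hoxa10, Hoxc8, Hoxc9, Hoxa9, Hoxc6, Hoxb2, Hoxa7, Hoxa5 and Hoxd8. The summed level was 384 CPM (369 to 399) and 352 CPM (343 to 363).

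Cluster c took 43.5% of the Hox UMIs of the vehicle mesenchymal cells and 54.2% of those of the teriparatide library, and cluster a took 41.7% and 35.8%. Cluster b held 11.8% and 5.05%, and cluster d held 2.98% and 5.01%. Paralogue group 10 was the largest group in both libraries, with 33.9% (32.1 to 35.8) and 31.3% (30.0 to 32.7). Group 9 held 19.1% and 19.01%, group 8 held 9.79% and 20.8%, and group 11 held 3.56% and 3.75%. Hence groups 9 to 13 made up 56.7% and 54.5% of the Hox UMIs, while group 13 alone had 4 UMIs (0.153%, 0.0417 to 0.391) in the vehicle and 18 UMIs (0.377%, 0.224 to 0.596) in the teriparatide mesenchymal cells.

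**Figure D1:**
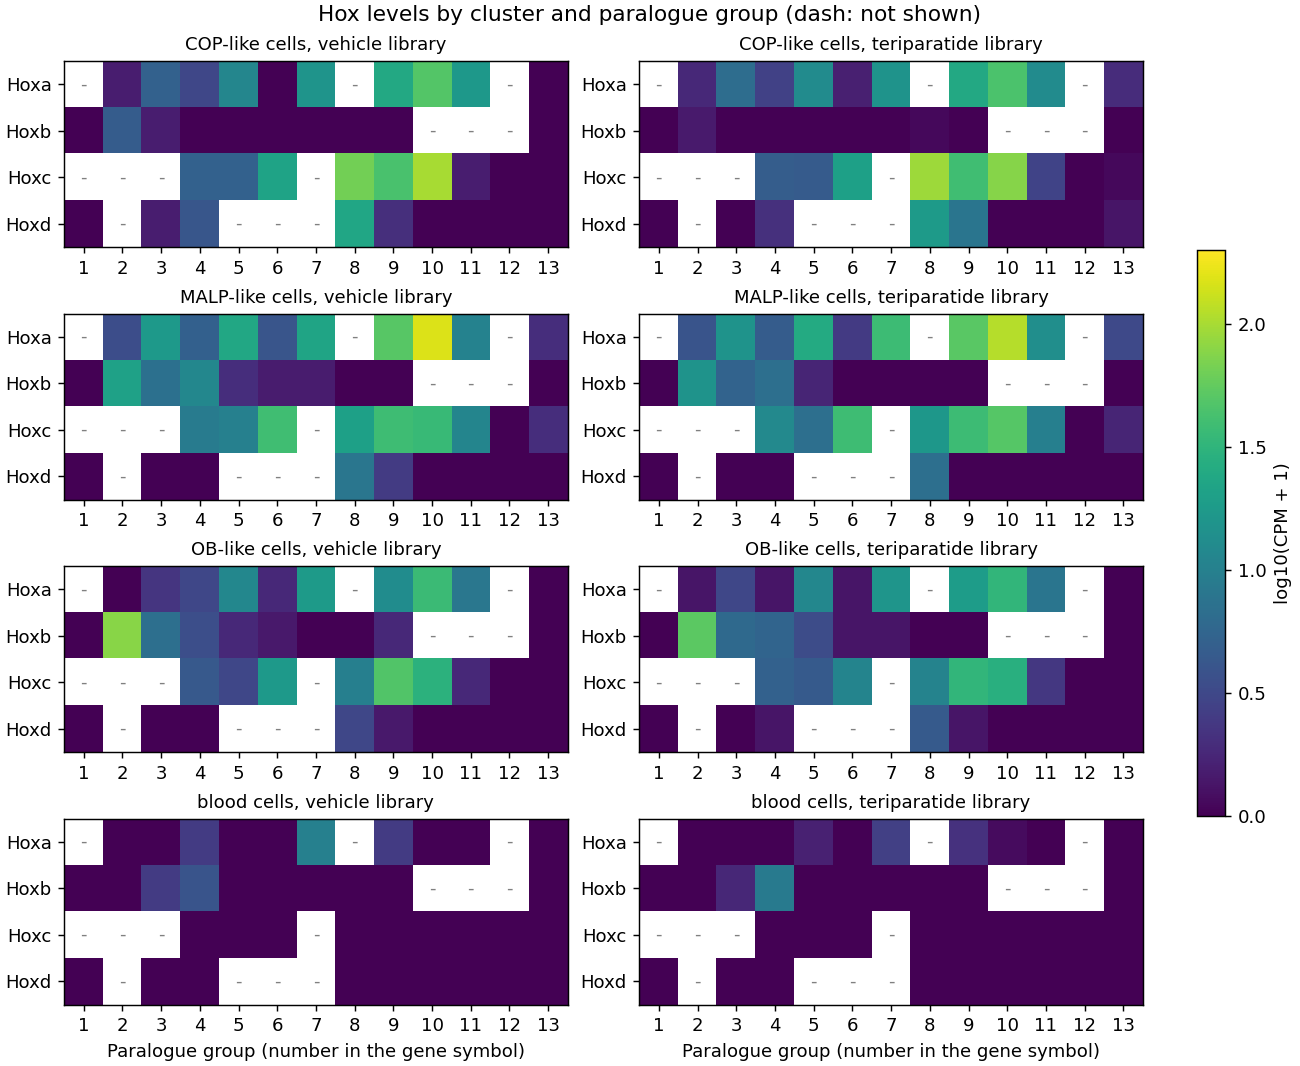
Levels of Hox genes in COP-like, MALP-like, OB-like and blood cells of the vehicle and teriparatide libraries, by cluster (rows a to d) and paralogue group (columns 1 to 13), coloured by log10(CPM + 1), with a dash where no gene is shown. The filled positions gather in clusters a and c from group 5 to group 10, Hoxb2 stands apart in cluster b, and cluster d is filled mainly at group 8.

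Of the 39 members, 33 had a UMI in either library and 21 reached 20 UMIs in the mesenchymal cells. The pattern within a cluster was not even along its length. In cluster d, Hoxd8 had 65 and 166 UMIs and Hoxd9 had 6 and 60, whereas Hoxd10 and Hoxd11, posterior members of the same cluster, had none in either library's mesenchymal cells. In cluster b, Hoxb2, Hoxb3 and Hoxb4 had 422, 56 and 51 UMIs over both libraries, and Hoxb5 to Hoxb9 had 12, 3, 2, 1 and 2. In cluster a, Hoxa11 reached 9.83 CPM (7.62 to 12.5) and 10.3 CPM (8.63 to 12.1), and Hoxa13, which acts in the hand and foot, had 15 UMIs in all. In cluster c the values fell from Hoxc10 at 54.6 CPM (49.2 to 60.4) and 61.3 CPM (57.2 to 65.6) to Hoxc11 at 3.82 and 2.96 CPM, and Hoxc13 had 4 UMIs.

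Hoxa6 had 18 mesenchymal UMIs over both libraries, Hoxd4 had 16, Hoxd13 had 3 and Hoxd3 had 1. Hoxb1, Hoxb13, Hoxc12, Hoxd1, Hoxd10, Hoxd11 and Hoxd12 had none, which allows up to 0.440 CPM in the vehicle and 0.222 CPM in the teriparatide mesenchymal cells (3 counts of the total). Hoxd10 had 4 UMIs over all barcodes, and the other six had none in any barcode. Among the low named members, Hoxa2 had 20 UMIs over both libraries, Hoxa3 had 125, Hoxa4 had 43, Hoxc4 had 112 and Hoxc5 had 89. In the annotation, 6 members share exon bases on the same strand with another counted gene (Hoxa2 and Hoxa3 with Gm28308, Hoxc5 with Hoxc10, and Hoxd3 and Hoxd4 with each other and with Gm28230), so their counts are uncertain, and 9 members share exon bases with a gene on the opposite strand.

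The comparison of mesenchymal with blood cells of the same library set Hox levels of the skeletal lineage beside those of cells that shared the library and its free RNA. Hox transcripts were far more abundant in the mesenchymal cells. In the vehicle library they summed to 384 CPM against 16.5 CPM (8.23 to 29.5) in blood cells, a ratio of 23.3-fold (log2 4.54, 3.70 to 5.54), and in the teriparatide library to 352 CPM against 12.2 CPM (9.64 to 15.3), a ratio of 28.8-fold (log2 4.85, 4.53 to 5.19). Erythroid cells held 2.01 and 4.91 CPM. The vehicle blood value rests on 11 UMIs, and without the 5 cells with most Hox UMIs in each class its log2 ratio was 6.73.

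At least 1 Hox UMI was seen in 90.2% (87.0 to 92.9) of the vehicle and 92.0% (89.5 to 94.0) of the teriparatide mesenchymal cells. The shares were 9.46% and 12.5% in blood cells and 2.13% and 3.73% in erythroid cells. The median cell held 12576 and 22530.5 UMIs in the mesenchymal lineage, 6841.5 and 11128 in blood and 9934 and 10436 in the erythroid lineage. With each cell thinned to 3000 UMIs and shallower cells left out (31 and 43 mesenchymal, 13 and 58 blood, 14 and 29 erythroid cells), the shares were 62.6% and 65.2% in mesenchymal cells, 1.64% and 4.44% in blood cells and 3.03% and 0 (0 to 2.76) in erythroid cells. The vehicle blood and erythroid shares stood for 1 of 61 and 1 of 33 cells, so no order was read from them.

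Among genes with at least 20 UMIs over both cell types, 11 of 18 members were at least 2-fold higher in the mesenchymal cells of the vehicle library and 0 were as much lower, against 29% and 17.7% of all 11499 genes. In the teriparatide library 19 of 20 members were higher and 1 was lower, against 38.4% and 18.5% of 13011 genes. The median log2 ratio was 1.39 and 3.96 for the members and 0.19 and 0.48 for all genes. Scaling by the median ratio of all genes would lower each log2 ratio by 0.09 in the vehicle library and by 0.36 in the other. Where blood cells held no UMI, the ratio was computed against 3 counts. In the teriparatide library a member with no blood UMI that reached 20 UMIs was thereby at least 2-fold higher in advance. The count of 19 there is thus partly set by the filter, and the member medians of both libraries rest partly on this value of 3 counts. In the vehicle library, whose blood class was smaller, a member with no blood UMI needed well over 20 mesenchymal UMIs to be called. The counts of 11 and 19 therefore cannot be compared. No UMI of clusters c or d was found in a blood cell of either library. So Hoxc10, with 372 and 829 UMIs in the mesenchymal cells, was at least 12.1-fold higher there in the vehicle and at least 129-fold higher in the teriparatide library. Hoxc8, with 191 and 824 UMIs, was at least 6.23-fold and at least 128-fold higher. Hoxa10 had 515 and 665 UMIs in mesenchymal cells and 0 and 1 in blood cells. The smaller blood class of the vehicle library sets its lower bounds.

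The exception was Hoxb4, a gene known for its part in blood stem cells. Over both libraries it had 51 UMIs in mesenchymal and 51 in blood cells, out of 88 blood Hox UMIs of all members. In the teriparatide library it had 24 UMIs (1.77 CPM, 1.14 to 2.64) in the mesenchymal cells and 49 UMIs (7.78 CPM, 5.75 to 10.3) in the blood cells, a log2 ratio of -2.13 (-2.90 to -1.40). It was seen in 40 of 441 blood cells (9.07%, 6.56 to 12.1) and in 0 of 161 erythroid cells, which allows up to 1.64 CPM there (3 counts). The vehicle blood cells held 2 UMIs of it (3.00 CPM, 0.363 to 10.8), so that there its level could not be told from the mesenchymal 3.96 CPM (2.61 to 5.76).

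Within the teriparatide blood cells, Hoxb4 stood at 12.01 CPM (7.34 to 18.6) in monocyte-like cells, where 16 of 121 cells held it, and at 6.23 CPM (3.95 to 9.35) in neutrophil-like cells, where 19 of 240 did. Hoxb3, its neighbour in the cluster, had 5 UMIs. Hoxa7 had 11 UMIs in the blood cells of the teriparatide and 6 in those of the vehicle library, 10 of the 17 in monocyte-like cells. Hoxa9, active in granulocyte-monocyte progenitors, had 8 blood UMIs, and 5 of them came from 1 vehicle and 6 teriparatide cells with the markers of such progenitors (GMP-like). Hoxa5 had 4 blood UMIs. The plot of blood levels is of the teriparatide library only.

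**Figure D2:**
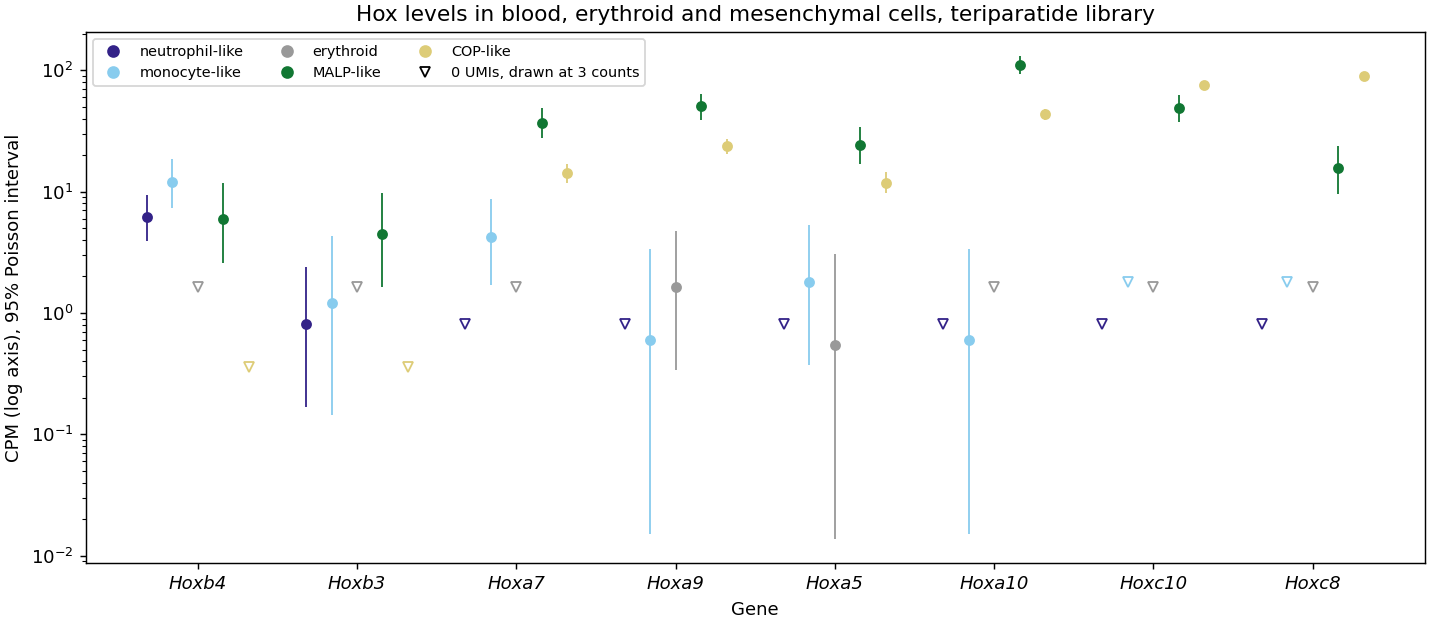
Levels of selected Hox genes by cell class in the teriparatide library, in CPM with exact 95% Poisson intervals. Hoxb4 is present in the monocyte-like and neutrophil-like cells at 12.01 and 6.23 CPM. The vehicle library, whose blood classes are small, is not shown.

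The mesenchymal classes differed in how much Hox transcript they held and in which genes. The summed level was highest in MALP-like cells, at 489 CPM (459 to 521) and 462 CPM (426 to 499.8). It was 386 CPM (358 to 415) and 376 CPM (363 to 390) in COP-like cells. The OB-like cells came last of the large classes at 287 CPM (265 to 309) and 245 CPM (227 to 264). The log2 ratio of MALP-like to OB-like cells was 0.77 (0.63 to 0.92) and 0.92 (0.76 to 1.07). That of MALP-like to COP-like cells was 0.34 (0.20 to 0.48) and 0.30 (0.17 to 0.42). The preOB-like cells, at 311 CPM (238 to 399) and 360.1 CPM (295 to 435), could not be placed in this order. None of these ratios was scaled by the median ratio of all genes. Against the other mesenchymal cells, the median log2 ratio of all genes was 0.45 and 0.45 for MALP-like cells. It was -0.11 and -0.12 for COP-like and -0.75 and -0.52 for OB-like cells. Whether the order of the classes holds with such scaling was not tested.

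Single cells held several Hox genes at once. The median number of members with a UMI was 5 and 6 in COP-like, 4 and 4 in MALP-like and 3 and 3 in OB-like cells of the vehicle and teriparatide libraries, and the most in any cell was 12. COP-like cells were also the deepest. At 3000 UMIs per cell the mean number was 1.29 and 1.47 in MALP-like, 1.00 and 1.07 in COP-like and 0.730 and 0.667 in OB-like cells, so that MALP-like cells came first once depth was equal. The share of cells with any Hox UMI was then 72.2% and 76.5%, 60.9% and 69.1%, and 51.3% and 50.8% in these classes. The intervals of the MALP-like shares (64.7 to 79.0 and 66.9 to 84.5) overlapped those of the COP-like shares (48.4 to 72.4 and 63.3 to 74.6).

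**Figure D3:**
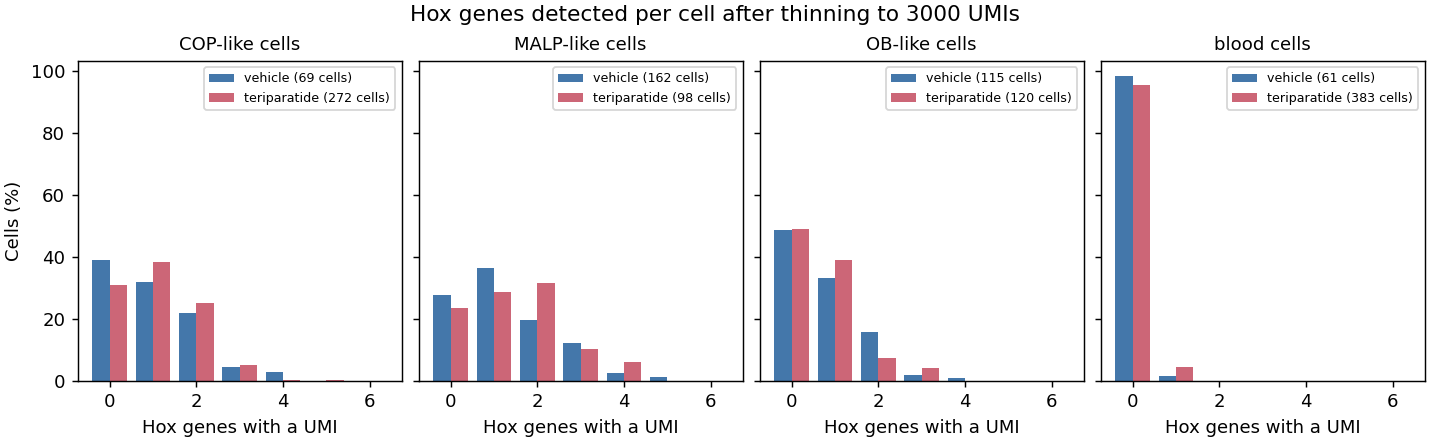
Number of Hox genes with a UMI per cell after thinning each cell to 3000 UMIs, as the percentage of the cells of each class, for both libraries. No Hox gene was seen in 98.4% and 95.6% of the blood cells, and in 27.8% and 23.5% of the MALP-like cells.

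In COP-like cells the leading members were Hoxc10 and Hoxc8, both of cluster c. Hoxc10 (chr15:102966796-102971893) stood at 99.7 CPM (86.0 to 115) and 76.4 CPM (70.6 to 82.5), and 57 of 71 and 220 of 278 cells held it. In the MALP-like cells it had 34.8 and 48.9 CPM and in the OB-like cells 29.3 and 27.3 CPM. Hoxc8 (chr15:102990607-102994111), a central gene whose domain in the embryo lies in the trunk, had 63.5 CPM (52.7 to 75.9) and 90.5 CPM (84.2 to 97.2) in COP-like cells. Its levels were 19.2 and 15.6 CPM in MALP-like and 8.92 and 9.66 CPM in OB-like cells. Both genes were thus higher in COP-like than in MALP-like or OB-like cells, with intervals that did not overlap.

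Hoxd8 (chr2:74704615-74707933) followed the same order at a lower level. It had 22.0 CPM (15.9 to 29.8) and 17.1 CPM (14.4 to 20.2) in COP-like cells, 7.07 and 5.93 CPM in MALP-like cells and 2.12 and 3.45 CPM in OB-like cells. Cluster c held 61.0% and 62.2% of the Hox UMIs of COP-like cells, and cluster b held 1.09% and 0.158%. The low level of cluster b was most evident for Hoxb3 and Hoxb4, which had 1 and 0 UMIs in the vehicle library's COP-like cells and none in those of the other library, although these cells were the deepest.

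Against all other mesenchymal cells of the library, 3 of 17 members (Hoxc8, Hoxc10 and Hoxd8) were at least 2-fold higher in COP-like cells in both libraries, where 8.24% of 10787 genes were. The log2 ratios were 2.15 (1.72 to 2.60) and 2.88 (2.51 to 3.28) for Hoxc8, 1.43 and 1.07 for Hoxc10, and 2.23 and 1.998 for Hoxd8. Another 4 (Hoxb2, Hoxb3, Hoxb4 and Hoxc11) were at least 2-fold lower in both, against 14.2% of genes. Hoxb2, for example, had 3.67 and 0.476 CPM in COP-like cells and 47.5 and 34.7 CPM in the others. Markers define the classes and no Hox gene was among them, but cells are not replicates and no test was made.

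In MALP-like cells Hoxa10 led. This gene (chr6:52231197-52240854) stood at 150.4 CPM (134 to 169) and 111 CPM (94.2 to 131), against 47.8 and 43.5 CPM in COP-like and 36.1 and 32.1 CPM in OB-like cells. Cells with a UMI of it made up 68.7% and 72.0% of the class, and 30.2% and 31.6% at 3000 UMIs per cell. Hoxa9, the next gene in the cluster, had 49.97 CPM (40.6 to 60.8) and 50.4 CPM (39.2 to 63.9), against 23.6 and 23.8 CPM in COP-like and 12.3 and 17.9 CPM in OB-like cells. Hoxa5 had 23.2 and 24.5 CPM in MALP-like cells and 10.5 and 11.9 CPM in COP-like cells. Hoxc6 had 38.4 and 37.8 CPM in the former and 20.5 and 19.4 CPM in the latter.

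Hence cluster a held 58.0% and 57.3% of the Hox UMIs of MALP-like cells, against 31.0% and 30.9% in COP-like cells. The members at least 2-fold higher in MALP-like than in the other mesenchymal cells in both libraries were 5 of 17, namely Hoxa3, Hoxa9, Hoxa10, Hoxb4 and Hoxc11, where 18.8% of all genes were. None was as much lower, against 8% of genes. The log2 ratios were 1.74 (1.49 to 2.003) and 1.40 (1.12 to 1.66) for Hoxa10 and 3.02 (1.66 to 4.63) and 1.95 (0.84 to 2.98) for Hoxc11, which had 20 and 12 UMIs in these cells. The split between Hoxc10 and Hoxa10, paralogues of the same group 10, ran in opposite directions in COP-like and MALP-like cells.

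In OB-like cells the member that stood out was Hoxb2, an anterior gene best known from the hindbrain. Hoxb2 (chr11:96350525-96354012) reached 77.7 CPM (66.9 to 89.8) and 52.1 CPM (44.1 to 61.1), the highest Hox level of the class in both. In MALP-like cells it had 19.7 and 14.1 CPM. It was seen in 34 of 122 and 38 of 144 OB-like cells, and the 5 cells with most of it held 38.8% and 39.7% of its UMIs, with up to 21 in 1 cell. Hoxc9 had 46.7 and 31.7 CPM in OB-like cells and was seen in 46 of 122 and 56 of 144 of them, with up to 12 UMIs in 1 cell.

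Hoxb2 was the only one of 17 members at least 2-fold higher in OB-like than in the other mesenchymal cells in both libraries, where 3.51% of genes were, with log2 ratios of 2.60 (2.17 to 3.06) and 4.16 (3.59 to 4.77). Of the rest, 5 (Hoxa3, Hoxc8, Hoxc10, Hoxc11 and Hoxd8) were at least 2-fold lower, against 21.9% of genes. Cluster b thus held 30.8% and 26.5% of the Hox UMIs of the class. The osteocyte markers Mepe, Dmp1 and Sost summed to 952 and 2659 CPM in OB-like cells. In those without Mepe and Sost, a division made after the values were seen, Hoxb2 had 80.6 and 52.6 CPM. In those with Mepe or Sost it had no UMI in the 12 vehicle cells (0 to 43.5 CPM) and 46.0 CPM (23.0 to 82.4) in the 22 teriparatide cells.

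**Figure D4:**
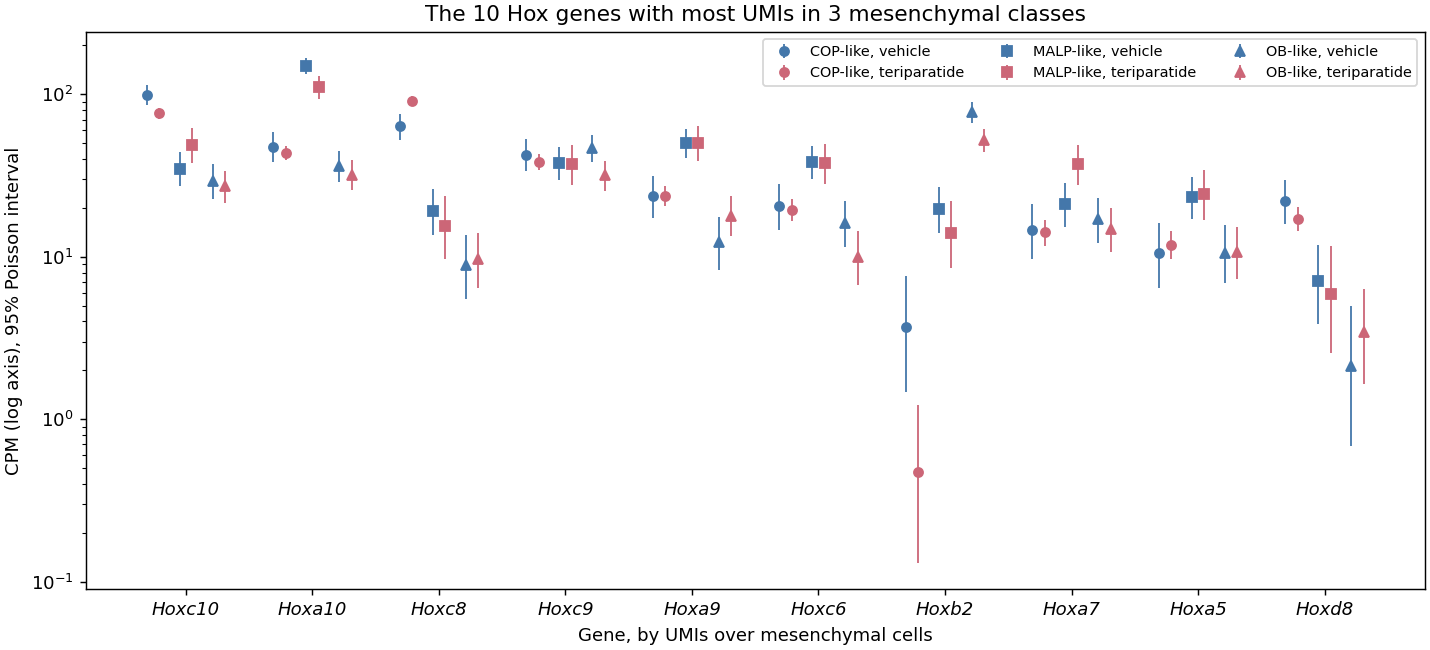
Levels of the 10 Hox genes with most mesenchymal UMIs in COP-like, OB-like and MALP-like cells of both libraries, in CPM with exact 95% Poisson intervals. Hoxc10 and Hoxc8 are highest in COP-like, Hoxa10 and Hoxa9 in MALP-like and Hoxb2 in OB-like cells, while Hoxc9 lies between 31.7 and 46.7 CPM in all.

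Over all members tested, the median log2 ratio to the other mesenchymal cells was -0.44 and -0.21 for COP-like, -1.21 and -0.65 for OB-like and 0.55 and 1.14 for MALP-like cells. For all genes it was -0.11 and -0.12, -0.75 and -0.52, and 0.45 and 0.45, so the general level of a class also moved in the direction of its Hox median.

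Some members differed less between the classes. Hoxc9 had 42.5 and 38.3 CPM in COP-like and 37.9 and 37.1 CPM in MALP-like cells, which together with its OB-like values gave overlapping intervals within each library. Hoxa11 had 15.7 and 11.9 CPM in COP-like, 9.59 and 12.6 CPM in MALP-like and 7.22 and 6.90 CPM in OB-like cells. Hoxa7 had 14.7 and 14.2 CPM in COP-like and 17.0 and 14.8 CPM in OB-like cells, and in MALP-like cells it had 21.2 CPM in the vehicle library, where the class intervals overlapped, and 37.1 CPM (27.5 to 48.9) in the teriparatide library, above the intervals of both other classes.

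The comparison of the teriparatide with the vehicle library asked whether the Hox pattern differed after treatment. Over all mesenchymal cells the summed level differed little, with a log2 ratio of -0.12 (-0.19 to -0.05), which became 0.08 when the libraries were scaled by the median ratio of all genes, whose median log2 ratio was -0.20. At least 1.5-fold higher were 3 of 21 members, among them Hoxc8 and Hoxd9, against 12.2% of 12566 genes, and 6 (Hoxa4, Hoxa10, Hoxb2, Hoxb3, Hoxb4 and Hoxc4) were as much lower, against 18.9%. With the median-ratio scaling these counts were 3 and 3. The mesenchymal cells of the libraries differed in composition, since COP-like cells were 71 of 419 in the vehicle and 278 of 586 in the teriparatide library. They also differed in sex, by Y-linked genes and Xist, with 52.5% (47.0 to 57.9) and 90.0% (87.0 to 92.5) of called cells male, where 3 of the 5 mice of each group were male. Neutrophil markers summed to 32.1 CPM in the vehicle and 155 CPM in the teriparatide mesenchymal cells, and their part in the results was not tested.

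Several of these values moved when the classes were given equal weight. The 15 and 20 preOB-like cells then count as much as each larger class, and the part of composition was not tested. Hoxc8 had 28.0 CPM in the vehicle and 60.9 CPM in the teriparatide mesenchymal cells, a log2 ratio of 1.12 (0.89 to 1.35), but 0.04 when each class was given equal weight. Hoxb2 had 35.2 and 13.4 CPM, a log2 ratio of -1.39 (-1.67 to -1.11), and of -0.57 with equal weights. Its level was lower in the teriparatide library within each of the COP-like, OB-like and MALP-like classes. In the MALP-like cells the interval of its ratio included 0, and in the COP-like cells it had fewer than 20 UMIs over both libraries. Hoxa10 had 75.6 and 49.1 CPM, a log2 ratio of -0.62 (-0.79 to -0.45), and of -0.05 with equal weights. It too was lower within each of these classes, with an interval that excluded 0 in MALP-like cells only. With equal weights 0 members were at least 1.5-fold higher. The values within classes are therefore given next.

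Within COP-like cells the summed Hox ratio was -0.04 (-0.15 to 0.08) on the log2 scale, and it was 0.15 with the median-ratio scaling and 0.25 in the cells called female. Only Hoxd9 of 14 members was at least 1.5-fold higher, against 10.9% of 11056 genes, and 0 were as much lower, against 17.7%. Hoxd9 (chr2:74697727-74700208) had 2 UMIs in the vehicle (1.05 CPM, 0.127 to 3.79) and 58 in the teriparatide library (6.90 CPM, 5.24 to 8.92), in 2 of 71 and 44 of 278 cells. Its log2 ratio was 2.72 (0.80 to 5.80). Without the 5 cells of each library with most of its UMIs it was 1.70. That left no vehicle UMI, so this value is a ratio to 3 counts and not to a measured level. In the teriparatide COP-like cells called male it had 6.98 CPM and in those called female 7.04 CPM (6 UMIs). Hoxc8 was higher at 0.51 (0.23 to 0.80) and Hoxc10 lower at -0.38 (-0.62 to -0.14), which was 0.47 in the cells called female, with 17 UMIs in the vehicle library.

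Within OB-like cells the summed ratio was -0.23 (-0.38 to -0.07). None of 12 members was at least 1.5-fold higher, against 11.4% of 9067 genes, and 1, Hoxc6, was as much lower, against 12.3%. Hoxc6 had 16.1 and 10.0 CPM, with a log2 ratio of -0.69 (-1.44 to 0.05). Hoxb2 had a ratio of -0.58 (-0.90 to -0.26) and Hoxc9 one of -0.56 (-0.97 to -0.14). The shares of cells that held them differed less. In the OB-like cells without Mepe and Sost these were 30.9% and 28.7% for Hoxb2 and 40.0% and 41.0% for Hoxc9. The intervals of the ratios do not cover the uneven spread of UMIs between cells.

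Within MALP-like cells the summed ratio was -0.08 (-0.23 to 0.06), and it was 0.18 after thinning each cell to 3000 UMIs and 0.37 in the cells called female. Of 16 members, 1 (Hoxa7) was at least 1.5-fold higher, against 10.6% of 9653 genes, and 2 (Hoxb4 and Hoxc5) were as much lower, against 11.5%. Hoxa7 had 21.2 CPM (15.3 to 28.7) and 37.1 CPM (27.5 to 48.9), a log2 ratio of 0.81 (0.19 to 1.43). Hoxa10 was lower at -0.44 (-0.73 to -0.15). Hoxb4, with 21 and 8 UMIs, and Hoxc5, with 18 and 8, had intervals that included 0. The median log2 ratio of the members was -0.11 in COP-like, -0.14 in OB-like and -0.11 in MALP-like cells, and that of all genes was -0.19, -0.07 and -0.05. In preOB-like cells the summed ratio was 0.21 (-0.25 to 0.69).

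**Figure D5:**
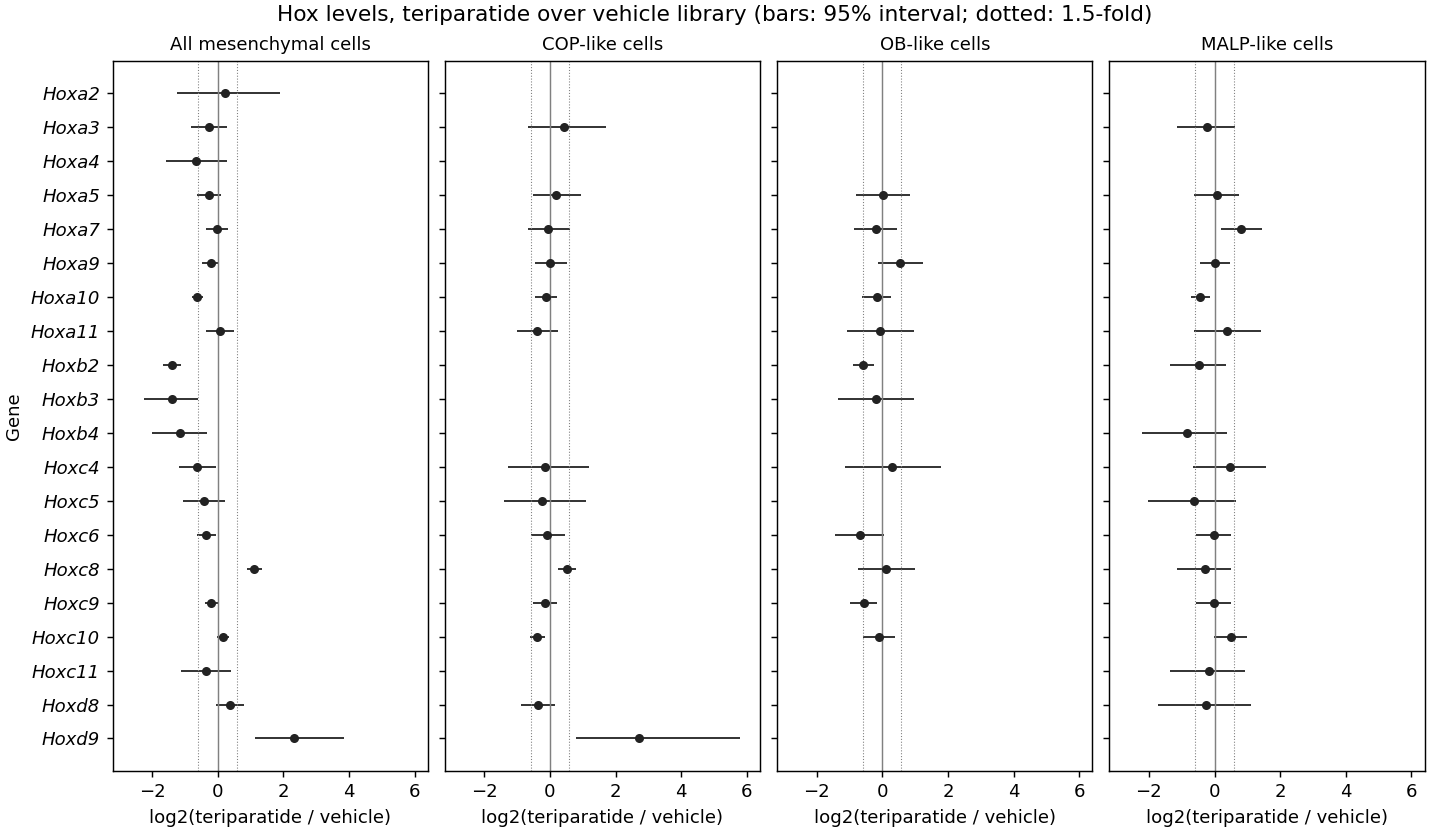
Log2 ratio of the teriparatide to the vehicle library for Hox genes with enough UMIs, in all mesenchymal cells and within COP-like, OB-like and MALP-like cells, with 95% intervals for counting error. Hoxc8 moves from 1.12 over all mesenchymal cells to 0.51 within COP-like cells, and Hoxd9 stays high at 2.33 and 2.72.

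Genes that act with or beside the Hox genes in the limb were measured in the same cells. Of the 5 limb identity genes, Pitx1, which specifies the hindlimb, had 38.7 CPM in the vehicle and 34.2 CPM in the teriparatide mesenchymal cells and no UMI in blood cells, and it was highest in COP-like cells among the large classes at 55.6 and 43.2 CPM. Tbx4, its hindlimb partner, had 2.20 and 2.07 CPM. Tbx5, the forelimb gene, had 0 and 2 UMIs. The tissue is a hindlimb bone, and both hindlimb genes were detected.

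Of 17 genes of limb segments and patterning, 13 reached 20 mesenchymal UMIs, and 10 of 11 in the vehicle and 13 of 13 in the teriparatide library were at least 2-fold higher in mesenchymal than in blood cells, against 29% and 38.4% of all genes. In the teriparatide library this call was set in advance for genes with no blood UMI. Shox2, which acts in the upper limb segment, had 184 and 188 CPM and was at 265 and 222 CPM in COP-like cells. Prrx1, an early marker of limb mesenchyme, ran the other way, with 3.15 and 1.19 CPM in COP-like cells and 359 and 327 CPM in MALP-like cells. Irx5 had 135 and 85.6 CPM in OB-like cells. Between the libraries 0 of the 13 were at least 1.5-fold higher (12.2% of all genes) in all mesenchymal cells. As much lower were 7 (18.9% of all genes), among them Prrx1 at -1.13 (-1.24 to -1.02) and Irx3 at -1.49 (-1.67 to -1.31). The libraries differed in composition, as given above. Prrx1 had 179 and 210 CPM within OB-like and 575 and 279 CPM within preOB-like cells. Within MALP-like cells Irx3 had 208 CPM (189 to 230) and 103 CPM (86.7 to 122). It had 10.5 and 12.6 CPM in COP-like, 43.3 and 36.9 CPM in OB-like and 66.2 and 64.5 CPM in preOB-like cells. The part of composition was not tested.

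Of 9 Hox cofactors, 8 reached 20 UMIs, and these homeodomain proteins bind DNA together with Hox proteins. Meis2 had 2.62 and 3.57 CPM in COP-like and 17.7 and 27.4 CPM in MALP-like cells. Not all cofactors had this order, as Pknox1 had 22.6 and 24.7 CPM in COP-like and 17.7 and 8.90 CPM in MALP-like cells. Between the libraries 0 were at least 1.5-fold higher in all mesenchymal cells, against 12.2% of all genes. Meis3 was the 1 as much lower, against 18.9%, at -0.94 (-1.29 to -0.58), with the difference in composition given above. Within COP-like cells it had 1.57 and 1.90 CPM, within OB-like cells 17.8 and 17.6 CPM. MALP-like cells had 36.3 and 34.9 CPM and preOB-like cells 30.5 and 34.0 CPM. The part of composition was not tested.

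Of 12 noncoding RNAs of the clusters, 9 were among the counted genes and 4 reached 20 UMIs. At least 1.5-fold higher in the teriparatide mesenchymal cells were Hotairm1 and Hoxd3os1, 2 of the 4, against 12.2% of all genes. Hoxb3os was the 1 as much lower, against 18.9%. Hotairm1 had 15.4 and 29.0 CPM, a log2 ratio between the libraries of 0.91 (0.60 to 1.24). Hoxd3os1 had 3.52 and 8.202 CPM, a ratio of 1.22 (0.57 to 1.92). Within COP-like, OB-like and MALP-like cells Hotairm1 had 18.4 and 26.8, 10.6 and 28.6, and 19.2 and 43.8 CPM. Hoxd3os1 had 6.30 and 11.4, 2.55 and 2.76, and 3.03 and 2.22 CPM. The part of composition was not tested. Hoxb3os had 4.99 and 3.25 CPM and Hoxaas3 had 1.76 and 2.36 CPM. Hotair, transcribed from cluster c, had 3 and 7 mesenchymal UMIs and Hottip none.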

How the data were processed

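Libraries were made with the 10x Genomics 3′ kit (v2 chemistry). The authors aligned reads to the mouse genome (mm10) and used Cell Ranger to count UMIs. The deposited matrices hold these raw counts for each gene and barcode, with no normalization. The submitters' notes give version 2.1.0 and the matrix header 3.1.0.

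Cells with 200 to 6000 genes and at most 10% mitochondrial UMIs were kept. Doublets were not called. Each cell was assigned to the lineage, and within it the class, with the highest mean marker score, that is log1p of UMIs per 10000, capped at the 0.99 quantile, when it led by 0.1. Within 0.05 of the limits lay 12 and 44 cells for lineage and 32 and 42 for mesenchymal class. Summed UMIs gave CPM with exact Poisson intervals, ratios with conditional exact binomial intervals and shares with Clopper-Pearson intervals (95%). The intervals cover counting error, and no interval covers the difference between mice. A count of 0 entered ratios as 3 counts. With 1 library per group no test was made. Counted as higher or lower were genes with at least 20 UMIs and a 2-fold ratio (lineage, class) or a 1.5-fold ratio (library).

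Named are members with at least 20 UMIs in mesenchymal or blood cells. Some genes that meet this rule or stand in a list are counted but not reported here by name. The members, markers and lists were chosen with earlier results of these data known. Alternatives changed 1 choice at a time: the cell limits, the gate margin (0.2), per-cell means, thinning to 3000 UMIs, median-ratio scaling, UMI minimums of 5 and 50, male or female cells, equal class weights and leaving out the 5 leading cells. On simulated counts, 92% and 98.5% of 200 genes changed 4-fold between mesenchymal and blood cells were recovered, among 11518 genes for the vehicle library and 13003 for the other. Coordinates come from GENCODE vM21 (GRCm38), in which all 39 members matched by identifier. Python 3.11.15, numpy 2.4.6, scipy 1.17.1, pandas 2.3.3 and matplotlib 3.10.9 were used.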

Additional observations from a re-analysis of the deposited data

Results flagged for a closer look

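Barcodes outside the limits on genes and mitochondrial share, which entered no comparison, also held Hox transcripts. In the 737 such barcodes of the vehicle library the summed Hox level was 353 CPM (330.4 to 377), and in the 925 of the teriparatide library it was 264 CPM (249 to 279). The erythroid cells that passed the limits had 2.01 and 4.91 CPM. Most of these UMIs lay in barcodes with a mesenchymal marker score, 374 barcodes at 471 CPM in the vehicle and 298 at 402 CPM in the teriparatide library. Barcodes outside the limits with a blood score had 48.0 CPM (19.3 to 98.8) and 44.4 CPM (30.5 to 62.3).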

How the results depend on the processing

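With 1 library per condition, the values below show how the Hox results moved under each alternative. Thinning each cell to 3000 UMIs gave a summed mesenchymal to blood log2 ratio of 6.20 in the vehicle library, 5 and 10 members at least 2-fold higher in mesenchymal cells (vehicle, then teriparatide), and a teriparatide to vehicle log2 ratio of 0.18 in MALP-like cells. It also gave shares of cells with a Hox UMI of 62.6% and 65.2% in mesenchymal, 1.64% and 4.44% in blood and, in the teriparatide library, 0 in erythroid cells, fewer UMIs being kept. Without the 5 cells with most Hox UMIs per class the summed vehicle log2 ratio to blood was 6.73. Median-ratio scaling gave 4.49 for that of the teriparatide library, and for teriparatide over vehicle 0.078 in all mesenchymal cells, a change of sign, with 3 members at least 1.5-fold lower, and 0.15 in COP-like cells, where it was -0.04 as reported. In female cells the members at least 1.5-fold lower were 3, and the summed log2 ratios were 0.25 in COP-like, -0.49 in OB-like and 0.37 in MALP-like cells. The COP-like and MALP-like values thus changed sign, their reported intervals including 0, as they did within those intervals with per-cell means (0.062 and 0.041) and, in COP-like cells, with thinning (0.074). With equal class weights the mesenchymal log2 ratio was -0.033. The members at least 1.5-fold higher were then 0, a count that depends on entering each class count of 0 as 3. Single genes that changed sign although the reported interval excluded 0 were Hoxc10 in COP-like cells between the libraries (female cells, 0.47), and against other mesenchymal cells Hoxa11 in COP-like (-0.40) and OB-like (0.18) and Hoxd8 in MALP-like cells (0.32), all of the teriparatide library and female, and, in male vehicle cells, Hoxa5 in OB-like (0.0041) and Hoxb2 in MALP-like cells (0.053). The causes were not tested. All other alternative values stayed within the limits set for a shift, 31 for the lineages, 53 for the libraries and 7 for the shares. Among single genes 281, 571 and, for the classes, 460 values did so, of which 2, 56 and 23 changed sign, while 28, 56 and 84 shifted in size, of which 0, 17 and 12 changed sign, all with reported intervals that included 0. The alternatives to the class comparisons and the one without the 5 cells with most UMIs of a gene were chosen after seeing the data. No paired analysis was possible because each condition has 1 library.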

Other observations

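Genes that are known to set or maintain Hox expression were measured in the same cells. Of 21 chromatin regulators, among them Kmt2a, which keeps Hox genes active, and Ezh2 of the Polycomb complexes that silence them, 20 reached 20 mesenchymal UMIs, and 0 were at least 1.5-fold higher or lower in the teriparatide library, against 12.2% and 18.9% of all genes. Kmt2a had 62.1 CPM in the vehicle and 64.0 CPM in the teriparatide mesenchymal cells, with a log2 ratio of 0.04 (-0.13 to 0.22). Ezh2 was lower in mesenchymal than in blood cells, at 25.1 and 109 CPM in the vehicle and at 26.4 and 60.5 CPM in the teriparatide library. Bmi1, of the same list, was higher, at 31.6 and 15.0 CPM and at 21.2 and 4.92 CPM. At least 2-fold higher and lower in mesenchymal cells were 4 and 6 of 18 regulators in the vehicle library (29% and 17.7% of all genes). In the teriparatide library they were 4 and 3 of 19 (38.4% and 18.5%). Of 6 upstream factors, Rarg, a retinoic acid receptor, had 61.5 and 67.2 CPM and Cyp26b1, which breaks retinoic acid down, 12.5 and 16.3 CPM, while Cdx1, Cdx2 and Cdx4, which act on Hox genes in the early embryo, had no UMI in mesenchymal cells. Gdf11 had 13.8 and 7.76 CPM, a log2 ratio of -0.83 (-1.25 to -0.41), in libraries that differed in class composition. Within COP-like cells it had 1.57 and 2.62 CPM, within OB-like cells 13.6 and 12.4 CPM. MALP-like cells had 19.7 and 19.3 CPM and preOB-like cells 30.5 and 34.0 CPM. The part of composition was not tested. The housekeeping genes Actb, Gapdh and Eef1a1 had log2 ratios of -0.39, 0.02 and 0.40.

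COP-like cells were also divided, after their values were seen, by whether Sfrp5, Cpm and Hhip or Chad and Stc2 had the higher level. Hoxc10 stood at 130.1 CPM (104.5 to 160.1) in the 28 vehicle cells of the first kind and at 80.2 CPM (64.8 to 98.1) in the 39 of the second, and at 98.1 CPM (86.1 to 111) and 67.5 CPM (61.0 to 74.4) in the 92 and 182 teriparatide cells. Hoxd9 ran the other way in the teriparatide library, with 3.66 CPM (1.67 to 6.95) and 8.35 CPM (6.18 to 11.04).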
